A study of Mus musculus with 11 samples.

Results

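Genes for the entry of proteins into the endoplasmic reticulum (ER) and for their transport on to the Golgi were followed in mouse pancreas after caerulein. The set held 50 gene symbols chosen by function, and a gene was measured where a probe set of the array carried its symbol alone. This left 47 of the 50, among 19938 genes with such a probe set. Srp54a, Sec61g and Kdelr2 were not analysed here. Where a gene had several such probe sets, the brightest of them, by its mean on the 11 arrays, stood for the gene.

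Wild-type C57Bl6J mice received 9 hourly intraperitoneal injections of caerulein, a peptide that stimulates the cholecystokinin receptor of the enzyme-secreting acinar cells, or sodium chloride (NaCl). There were 6 caerulein arrays and 5 NaCl arrays of total RNA from whole pancreas. The series text states a dose of 50 mg/kg, a unit not checked here, and counts 4 control mice where the titles name 5 control samples. Neither the age and sex of the mice nor the time from injection to collection is given in the sources used here, and nothing in them says that each array was a separate mouse, so the spread behind each p-value is that between arrays and may be technical.

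As background, secretory proteins are recognised by their signal sequence while still being made. The signal recognition particle (SRP) brings the ribosome to the ER membrane, the chain enters through the Sec61 channel, signal peptidase removes the signal sequence and the oligosaccharyltransferase attaches sugar chains. Folded cargo leaves in vesicles coated with COPII, while COPI vesicles carry escaped ER proteins back. The acinar cell is among the most active protein-secreting cells of the body and is filled with rough ER.

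Most of the machinery was lower after caerulein. Of the 47 genes, 29 fell, 3 rose and 15 did not pass the threshold (limma, Benjamini-Hochberg adjusted p under 0.05 over all probe sets). The changes were widespread on these arrays, with 44.2% of all 35556 probe sets past the threshold. Among all 19938 genes, 34.3% were called lower and 20.3% higher, against 61.7% and 6.38% of the 47. A fall of at least 2-fold was called for 7 of the 47, against 1.44% of all genes, and a rise of that size for 0 of the 47, against 6.14%. Every caerulein array lay below every NaCl array for 27 of the genes, against 20.6% of all genes, and above for 3, against 16.7%. Differences are caerulein minus NaCl, between group means of log2 values. Their median over the 47 was -0.38, against -0.13 over all genes, and they ran from -1.61 for Lman1 to 0.88 for Kdelr3.

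The genes were bright on these arrays. Of the 47, 45 had a mean level above that of the median gene. The middle 50 percent of them lay between 7.89 and 9.07 on the log2 scale, a range that held 1058 genes in all. In that range most genes went the other way. There 56.4% were called higher and 25.1% lower, with a median difference of 0.36. A fall of at least 2-fold was called for 60 of the 1058 and a rise of that size for 296. Level here was the mean over the arrays of both groups, so the range was not chosen apart from the differences. A gene dim under NaCl and raised by caerulein could enter the range through its caerulein arrays. A gene that was lowered could enter it through its NaCl arrays. How far this and the choice of range shape these values was not tested. The plot of cumulative differences shows the transport and translocation genes to the left of both backgrounds over most of its range. These shares describe the set, whose members were chosen with results of these data known, and were not tested.

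**Figure D1:**
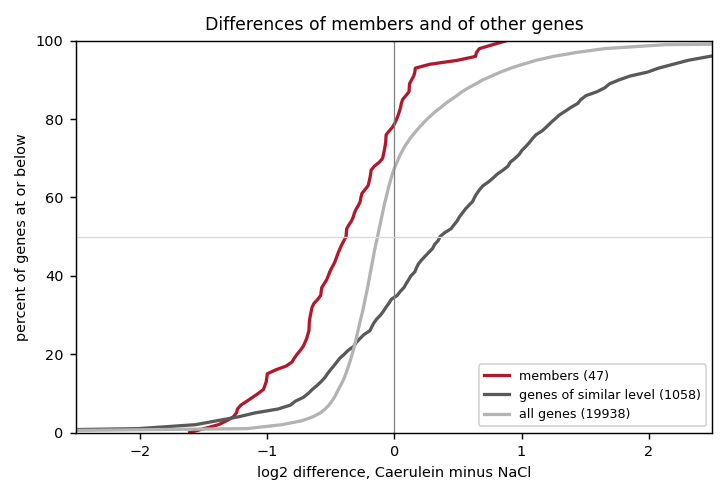
Percent of genes (vertical axis) whose log2 difference, caerulein minus NaCl, is at or below the value on the horizontal axis, for the 47 members, the 1058 genes of similar level and all 19938 genes. The medians, where the lines cross 50 percent, are -0.38 for the members, 0.36 for genes of similar level and -0.13 for all genes. Level is the mean over the arrays of both groups, so genes of similar level were not chosen apart from their differences.

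The fall was present on each caerulein array. Relative to the NaCl means, the median over the 47 genes was between -0.47 (replicate 3) and -0.33 (replicate 5) on the 6 caerulein arrays and between -0.097 and 0.13 on the 5 NaCl arrays. The median over all genes, taken the same way, was between -0.14 (replicate 5) and -0.11 (replicate 4) on the caerulein arrays. On the NaCl arrays it was between -0.013 and 0.0089. The groups did not overlap in either median, so a lower median on each caerulein array was not particular to the 47. NaCl replicate 1 was the highest NaCl array for 32 of the 47 genes and NaCl replicate 3 the lowest for 22. Without NaCl replicate 1, the counts were 28 lower and 4 higher, the added gene being Sec61a1.

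**Figure D2:**
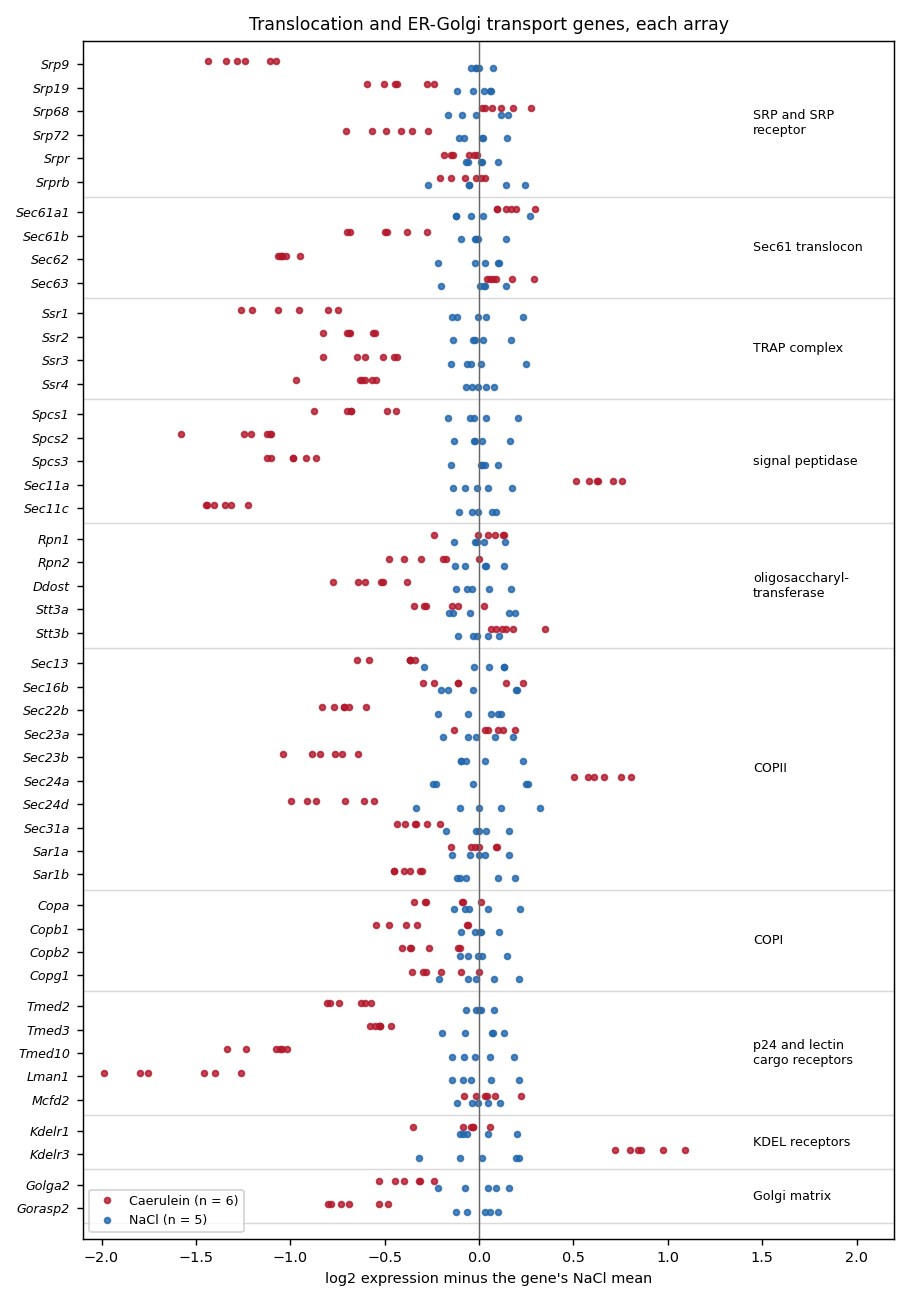
Log2 expression of each of the 47 genes on each array, minus the gene's own NaCl mean (horizontal axis). Points are single arrays, caerulein above NaCl on each line, and genes are grouped by role. Caerulein points lie to the left of all NaCl points for 27 genes and to the right for Sec11a, Sec24a and Kdelr3.

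Arrays of a group correlated at 0.981 to 0.991 over all probe sets, and arrays of different groups at 0.938 to 0.955. Whole tissue was measured, so fewer cells of a type and less RNA per cell cannot be told apart. The tissue label was borne out by acinar markers, whose summed linear signal was 237142 to 254871 on caerulein arrays and 275074 to 279092 on NaCl arrays. Among 15 measured acinar markers 6 fell, 0 rose and the median difference was -0.12. Over all genes, the background for every marker list here, 34.3% were called lower, 20.3% higher, and the median was -0.13. Nothing particular to a cell type is read from the counts of calls. In 12 of the 15 acinar markers every caerulein array lay below every NaCl array, against 20.6% of all genes. All but Rbpjl had group means between 12.79 and 14.64 on the log2 scale, near the top of the range, where differences can be compressed. Rbpjl, an acinar transcription factor gene, averaged 8.07 under caerulein and 9.50 under NaCl and fell by 1.43 (limma adjusted p = 2.09e-06). The duct list had 4 of 8 higher and 2 lower, with sums of 4178 to 4905 under caerulein and 1531 to 1814 under NaCl. Its differences ran from -1.14 to 4.39 around a median of 0.35, so its sums can rest on few genes. Of 12 macrophage markers 6 were higher and 0 lower, with sums of 1045 to 2097 under caerulein and 690 to 771 under NaCl. B and plasma cells, which also make much rough ER, had 1 of 9 markers higher and 4 lower, with sums of 774 to 989 under caerulein and 919 to 1189 under NaCl. The other lists had 1 higher and 3 lower of 12 neutrophil markers (sums of 303 to 423 and 340 to 367), 5 and 2 of 12 fibroblast markers (1957 to 3482 and 1837 to 2155), 3 and 2 of 12 endothelial markers (1037 to 1167 and 1019 to 1096) and 0 and 4 of 10 islet markers (2699 to 5966 and 2115 to 6266), each pair of ranges being caerulein and then NaCl. The part of these shifts in the results was not tested.

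The particle and its receptor were mixed. Of 6 measured genes, 3 fell and 3 did not pass, with a median of -0.26. Of all genes 34.3% were called lower, and nothing particular to this small group is read from the count. Srp9 encodes a small subunit of the particle that takes part in pausing translation. Its caerulein arrays ran from 8.27 to 8.62 around a median of 8.44, and its NaCl arrays read 9.70, 9.69, 9.69, 9.78 and 9.66. The groups were far apart, with a difference of -1.25 (SE 0.073, limma adjusted p = 3.05e-08), or 2.37-fold lower. A second Srp9 probe set fell by 0.85. Srp72, which forms a pair with Srp68 on the particle's RNA, ran from 7.97 to 8.41 (median 8.22) under caerulein, against 8.69, 8.60, 8.57, 8.83 and 8.70 under NaCl. It fell by 0.47 (SE 0.084, limma adjusted p = 0.000689). Srp19, which helps to assemble the particle, ran from 6.31 to 6.66 (median 6.47) under caerulein, against 6.79, 6.97, 6.87, 6.96 and 6.93 under NaCl, and fell by 0.42 (SE 0.075, limma adjusted p = 0.000694). Both were lower on every caerulein array. Differences of 0.12 for Srp68, -0.095 for the receptor subunit Srpr and -0.068 for its partner Srprb did not pass.

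In the channel itself, Sec61b and Sec62 fell while Sec61a1 and Sec63 did not pass, and the median of the 4 was -0.19. That is near the median of all genes, -0.13, with 34.3% of all genes called lower. Sec62 is a partner of the channel used by short and late-entering proteins. It read 8.01 to 8.13 (median 8.03) on the caerulein arrays, against 9.11, 8.86, 9.06, 9.18 and 9.18 on the NaCl arrays. This was a 2.04-fold fall with little scatter under caerulein (difference -1.03, SE 0.068, limma adjusted p = 9.21e-08). Sec61b, the small beta subunit, ran from 7.12 to 7.53 (median 7.32) under caerulein, against 7.79, 7.71, 7.80, 7.95 and 7.81 under NaCl, and fell by 0.50 (SE 0.085, limma adjusted p = 0.000401). Its 2 other probe sets fell by 0.34 and 0.41. Sec61a1, which forms the pore, ran from 10.48 to 10.68 (median 10.54) under caerulein, against 10.65, 10.40, 10.26, 10.34 and 10.26 under NaCl. A single NaCl array, replicate 1, overlapped the caerulein arrays. Its difference of 0.17 (SE 0.079, limma adjusted p = 0.103) became 0.23 without that array (adjusted p = 0.0137), and it was -0.23 with an equal mean of reference genes. Sec63, a J-domain partner of Sec62, differed by 0.12 (limma adjusted p = 0.207).

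All 4 subunits of the TRAP complex, which sits beside the channel and helps some signal sequences to open it, were lower. Their median was -0.66 and no caerulein array reached a NaCl array in any of them. Of all genes 34.3% were called lower, and 20.6% had every caerulein array below every NaCl array. Ssr1 read 7.50 to 8.01 (median 7.75) under caerulein, against 8.99, 8.64, 8.79, 8.75 and 8.62 under NaCl (difference -1.01, SE 0.11, limma adjusted p = 7.65e-06). Ssr2 read 8.36 to 8.64 (median 8.50) under caerulein, against 9.36, 9.16, 9.05, 9.21 and 9.16 under NaCl (difference -0.67, SE 0.072, limma adjusted p = 9.28e-06). Ssr4 read 9.12 to 9.55 (median 9.48) under caerulein, against 10.17, 10.06, 10.02, 10.13 and 10.09 under NaCl (difference -0.66, SE 0.080, limma adjusted p = 2.61e-05). The falls of the 4 ran from 1.49-fold for Ssr3 to 2.01-fold for Ssr1.

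Signal peptidase had the largest median fall of the 10 role groups, at -0.997, with 4 of 5 genes lower, against 34.3% of all genes. The exception was a catalytic subunit. Mammals carry a pair of genes for the catalytic subunit, Sec11a and Sec11c. Sec11c read 8.18 to 8.40 (median 8.25) under caerulein, against 9.71, 9.62, 9.59, 9.69 and 9.52 under NaCl, a 2.57-fold fall (difference -1.36, SE 0.064, limma adjusted p = 4.61e-09). Sec11a read 9.00 to 9.24 (median 9.11) under caerulein, against 8.41, 8.35, 8.47, 8.53 and 8.66 under NaCl, a 1.55-fold rise (difference 0.64, SE 0.071, limma adjusted p = 1.26e-05). The relatives moved in opposite directions with no overlap between groups in either. The accessory subunits went with Sec11c. Spcs2 read 7.40 to 7.88 (median 7.81) under caerulein, against 9.14, 8.85, 8.95, 9.00 and 8.96 under NaCl (difference -1.23, SE 0.092, limma adjusted p = 2.99e-07). Spcs3 read 8.85 to 9.11 (median 8.99) under caerulein, against 10.07, 9.82, 10.003, 9.99 and 9.99 under NaCl (difference -0.997, SE 0.069, limma adjusted p = 1.53e-07). Spcs1 fell by 0.64. Under 4 rescalings of the arrays the rise of Sec11a was 0.24 to 0.58, past the threshold each time.

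Of 5 genes of the oligosaccharyltransferase, Ddost and Rpn2 fell and the others did not pass, with a median of -0.19. Over all genes 34.3% were lower and the median was -0.13, so this group as a whole was near the background. Ddost, a shared subunit next to the catalytic one, read 8.42 to 8.81 (median 8.64) under caerulein, against 9.25, 9.16, 9.14, 9.37 and 9.08 under NaCl (difference -0.57, SE 0.080, limma adjusted p = 9.34e-05). Rpn2, another shared subunit, overlapped, with 9.08 to 9.56 (median 9.31) under caerulein, against 9.60, 9.48, 9.59, 9.69 and 9.43 under NaCl (difference -0.26, SE 0.089, limma adjusted p = 0.0318). Of the 29 falls, it was the only one whose call was lost under any of 19 alternatives. This happened without NaCl replicate 1, 3 or 4 and without caerulein replicate 1, 2 or 3 (adjusted p of 0.0551 to 0.0749). Stt3b, the catalytic subunit that can work after a chain is finished, read 8.52 to 8.81 (median 8.59) under caerulein, against 8.56, 8.45, 8.35, 8.50 and 8.42 under NaCl (difference 0.16, SE 0.068, limma adjusted p = 0.0767). Stt3a, the catalytic subunit that works at the channel, read 8.72 to 9.09 (median 8.85) under caerulein, against 9.25, 9.22, 8.90, 8.92 and 9.02 under NaCl (difference -0.19, SE 0.091, limma adjusted p = 0.109). Both catalytic genes overlapped between groups, and the shared subunit Rpn1 differed by 0.024.

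**Figure D3:**
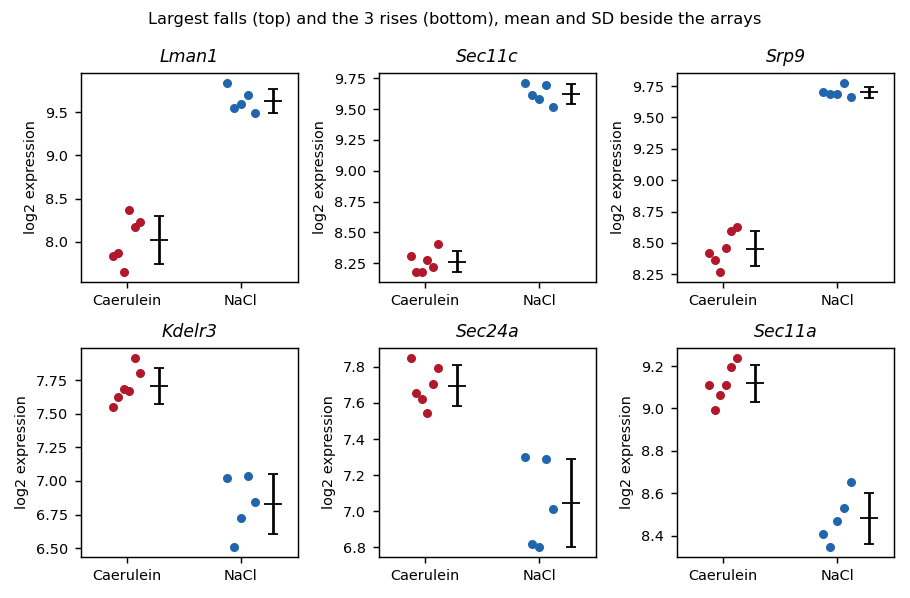
Log2 expression (vertical axes, each with its own range) of the 3 genes with the largest falls and of the 3 that rose. Points are the 6 caerulein and 5 NaCl arrays, and bars beside them give mean and SD. The groups do not overlap in any panel, from a 3.05-fold fall for Lman1 to a 1.84-fold rise for Kdelr3.

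Among 10 genes of the COPII route, 6 fell, Sec24a rose and 3 did not pass, with a median of -0.35. Over all genes 34.3% were called lower and 20.3% higher, and the median was -0.13. Sec23b encodes an inner coat protein. It read 7.89 to 8.28 (median 8.12) under caerulein, against 9.16, 8.95, 8.83, 8.83 and 8.86 under NaCl (difference -0.82, SE 0.086, limma adjusted p = 7.49e-06). Sec22b, a SNARE (a protein that drives membrane fusion) of ER-derived vesicles, read 7.53 to 7.76 (median 7.64) under caerulein, against 8.42, 8.47, 8.14, 8.46 and 8.30 under NaCl (difference -0.72, SE 0.074, limma adjusted p = 5.86e-06). Neither overlapped. The cargo-binding coat proteins of the SEC24 family split. Sec24d read 7.15 to 7.59 (median 7.36) under caerulein, against 8.47, 8.26, 7.81, 8.15 and 8.05 under NaCl (difference -0.77, SE 0.12, limma adjusted p = 0.000179). Sec24a read 7.55 to 7.85 (median 7.68) under caerulein, against 7.30, 6.82, 6.80, 7.29 and 7.01 under NaCl (difference 0.65, SE 0.11, limma adjusted p = 0.000307), and its rise was 0.25 to 0.59 under 4 rescalings, past the threshold each time. Outer coat genes were lower, Sec13 by 0.44 and Sec31a by 0.33, and neither overlapped. Sar1a and Sar1b encode the GTPases that start coat assembly. Sar1b read 7.92 to 8.06 (median 7.99) under caerulein, against 8.47, 8.56, 8.27, 8.25 and 8.29 under NaCl (difference -0.38, SE 0.072, limma adjusted p = 0.000959). Sar1a read 8.97 to 9.22 (median 9.11) under caerulein, against 9.28, 9.16, 9.08, 9.12 and 8.98 under NaCl (difference -0.0055, limma adjusted p = 0.955). Sec23a read 5.37 to 5.69 (median 5.58) under caerulein, against 5.45, 5.49, 5.68, 5.32 and 5.59 under NaCl (difference 0.060, limma adjusted p = 0.570). Sar1a and Sec23a overlapped throughout, and the exit-site gene Sec16b differed by -0.064. After loess Sec23a was called higher (difference 0.24, limma adjusted p = 0.0241), and with an equal reference gene mean it stood at -0.34. Sec16b and Sec23a were the dimmest of the 47, and whether they lay above background is unknown.

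Promoter sequence is shown for Sec24d and Sec24a, which moved in opposite directions, and for Kdelr3, the largest rise. The sequences are RefSeq's (GRCm38.p6), from 250 bases before to 50 after the gene start, 5′ to 3′ on the gene's strand. Capitals mark TGACGTGG on either strand (the opposite strand then reads CCACGTCA), the core of the unfolded protein response element, which is known to be bound by ATF6 and XBP1, transcription factors that raise many genes of this pathway under ER stress.
Sec24d, chr3:123267246-123267545, plus strand: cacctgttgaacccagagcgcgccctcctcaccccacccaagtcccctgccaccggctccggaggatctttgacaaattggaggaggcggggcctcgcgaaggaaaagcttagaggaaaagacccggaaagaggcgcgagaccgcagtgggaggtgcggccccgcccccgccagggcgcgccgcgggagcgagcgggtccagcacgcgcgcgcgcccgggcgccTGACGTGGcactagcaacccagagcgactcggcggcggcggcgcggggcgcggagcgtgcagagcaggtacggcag
Sec24a, chr11:51756785-51757084, minus strand: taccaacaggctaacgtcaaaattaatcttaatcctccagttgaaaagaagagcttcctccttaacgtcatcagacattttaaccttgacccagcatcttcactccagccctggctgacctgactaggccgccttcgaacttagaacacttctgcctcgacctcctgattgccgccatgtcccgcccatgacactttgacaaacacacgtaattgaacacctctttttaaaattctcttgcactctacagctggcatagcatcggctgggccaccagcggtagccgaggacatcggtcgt
Kdelr3, chr15:79516158-79516457, plus strand: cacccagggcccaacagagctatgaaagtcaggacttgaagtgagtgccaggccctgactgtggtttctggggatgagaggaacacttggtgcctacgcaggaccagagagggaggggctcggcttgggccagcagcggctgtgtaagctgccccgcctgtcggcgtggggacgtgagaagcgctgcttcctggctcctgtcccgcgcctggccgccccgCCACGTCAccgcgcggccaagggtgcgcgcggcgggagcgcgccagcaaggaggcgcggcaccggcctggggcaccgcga
Matches were found near the start in Sec24d and Kdelr3, and these letters are not in the Sec24a window.

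Promoter windows were given for 39 of the 47 genes, 43 windows in all. TGACGTGG was in 6 of them (13.95%), against 0.676% of all 32851 promoter windows, 0.705% of the 21262 windows of protein-coding genes and 1.52% of the 1117 windows of genes of similar level. The other 4 matches are shown with 10 bases on each side, on the gene's strand, since they include genes of both COPI and COPII.
Copb1, chr7:114254691-114254718, minus strand: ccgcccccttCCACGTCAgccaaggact
Copb2, chr9:98563714-98563741, plus strand: cccggaagttCCACGTCAgtgggttggc
Sec23a, chr12:59011994-59012021, minus strand: tcctccccttTGACGTGGcagaggcggc
Sec16b, chr1:157506742-157506769, plus strand: tctgtgtggcTGACGTGGcacggcagtt
Of the 6 genes with a match, Sec24d, Copb1 and Copb2 fell, Kdelr3 rose, and Sec23a and Sec16b did not pass. The shorter CCACG, which TGACGTGG contains on its opposite strand, was in 69.8% of the 43 windows, 37.4% of protein-coding windows and 53.7% of windows of genes of similar level. The ER stress element, CCAAT and CCACG with 9 bases between, was in 0 of the 43, in 0.141% of protein-coding windows and in 0.269% of windows of genes of similar level. Its second form, ATTGG and CCACG with 1 base between, was in 0, 0.0517% and 0.358%, and the cyclic AMP element TGACGTCA in 0, 2.23% and 4.03%. Both strands were searched for each. The median GC content was 60.3% in the 43 windows, 56.3% in protein-coding windows and 62.7% in those of genes of similar level. A match is a description of the letters and no evidence of binding.

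COPI coat genes all lay between -0.31 and -0.18, with 2 of 4 past the threshold and a median of -0.24. Over all genes the median was -0.13 and 34.3% were called lower. Copb2 read 8.09 to 8.40 (median 8.19) under caerulein, against 8.65, 8.40, 8.44, 8.50 and 8.52 under NaCl (difference -0.27, SE 0.077, limma adjusted p = 0.0134). Copb1 read 8.15 to 8.64 (median 8.34) under caerulein, against 8.80, 8.70, 8.60, 8.68 and 8.71 under NaCl (difference -0.31, SE 0.096, limma adjusted p = 0.0198). Copb2 was separated by a narrow gap and Copb1 overlapped. Copg1 read 7.45 to 7.81 (median 7.57) under caerulein, against 8.02, 7.79, 7.60, 7.89 and 7.75 under NaCl (difference -0.21, SE 0.089, limma adjusted p = 0.0788). It overlapped, and it passed without NaCl replicate 3 (adjusted p = 0.0366) or caerulein replicate 6 (adjusted p = 0.0428), while Copa differed by -0.18 (adjusted p = 0.109). Loess and a second quantile normalisation each gave all 4 a call of lower.

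The cargo receptors were mostly lower. Of 5 genes 4 were lower, with a median of -0.69, where 34.3% of all genes were lower and their median was -0.13. Lman1 encodes the mannose-binding lectin that ferries glycoproteins out of the ER. It read 7.65 to 8.37 (median 8.02) under caerulein, against 9.84, 9.55, 9.59, 9.70 and 9.49 under NaCl. At 3.05-fold (difference -1.61, SE 0.13, limma adjusted p = 4.71e-07) this was the largest change of the 47, and its caerulein arrays also had the widest spread (SD 0.28). Mcfd2, the soluble partner that binds Lman1 to carry coagulation factors, read 8.26 to 8.56 (median 8.37) under caerulein and 8.45, 8.22, 8.33, 8.39 and 8.30 under NaCl (difference 0.047, limma adjusted p = 0.607). The difference between these partners was not tested. Of the p24 proteins, which sort cargo into vesicles, Tmed10 read 8.57 to 8.89 (median 8.84) under caerulein, against 10.09, 9.97, 9.76, 9.88 and 9.83 under NaCl (difference -1.13, SE 0.081, limma adjusted p = 2.16e-07). Tmed2 read 9.53 to 9.77 (median 9.65) under caerulein, against 10.42, 10.34, 10.35, 10.32 and 10.27 under NaCl (difference -0.69, SE 0.065, limma adjusted p = 2.48e-06). Both were clear of overlap, and their other probe sets fell too, by 1.01 for Tmed10 and by 0.67 and 0.69 for Tmed2. Tmed3 fell by 0.53.

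KDEL receptors retrieve ER-resident proteins from the Golgi. Kdelr3 read 7.55 to 7.92 (median 7.68) under caerulein, against 7.02, 6.51, 6.72, 7.04 and 6.84 under NaCl. Every caerulein array was higher, by 1.84-fold on average (difference 0.88, SE 0.10, limma adjusted p = 1.90e-05), and by 0.48 to 0.82 on the log2 scale under 4 rescalings. Kdelr1 read 7.99 to 8.40 (median 8.31) under caerulein and 8.55, 8.26, 8.24, 8.39 and 8.28 under NaCl, with overlap (difference -0.080, SE 0.084, limma adjusted p = 0.464).

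Both Golgi matrix genes were lower, as were 34.3% of all genes. Gorasp2, which stacks Golgi cisternae, read 8.54 to 8.86 (median 8.63) under caerulein, against 9.44, 9.40, 9.22, 9.28 and 9.37 under NaCl (difference -0.67, SE 0.077, limma adjusted p = 1.59e-05). Golga2, a tether for arriving vesicles, read 6.56 to 6.86 (median 6.74) under caerulein, against 7.25, 7.02, 7.14, 6.88 and 7.19 under NaCl (difference -0.37, SE 0.081, limma adjusted p = 0.00248). For Golga2 the gap between groups was small.

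Within the 6 pairs of related subunits tested, the genes changed by unequal amounts. Of 8 pairs of relatives listed, 6 had both genes measured, and the log2 ratio within each array was compared between groups by a two-sided exact permutation test over all 462 assignments, adjusted over the 6 pairs. A shift of a whole array leaves such a ratio as it is, and only its change is read, since levels of different probe sets cannot be compared. The genes of these pairs were members of the set, chosen with results of these data known. The p-values do not allow for that choice, and other relatives, such as Sec24b, were not tested in pairs. The ratio of Sec11c to Sec11a was -0.97 to -0.80 under caerulein and 0.86 to 1.30 under NaCl, a change of -1.999 (SE 0.076, exact permutation p = 0.00216, adjusted p = 0.00260). That of Sec24d to Sec24a changed by -1.43 (SE 0.13), of Sec23b to Sec23a by -0.88 (SE 0.11), and of Sar1b to Sar1a by -0.37 (SE 0.051). The Sec23 value is uncertain in size, since Sec23a was among the dimmest genes and may not lie above background, and it was -1.31 after a second quantile normalisation and -1.24 after loess. The ratio of Kdelr3 to Kdelr1 changed by 0.96 (SE 0.11). Each of these 4 had the same exact permutation p of 0.00216, the smallest this design can give, and groups that did not overlap. The ratio of Stt3b to Stt3a changed by 0.35 (SE 0.078, exact permutation p = 0.00649, adjusted p = 0.00649), with caerulein arrays at -0.43 to -0.14 and NaCl arrays at -0.78 to -0.42.

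**Figure D4:**
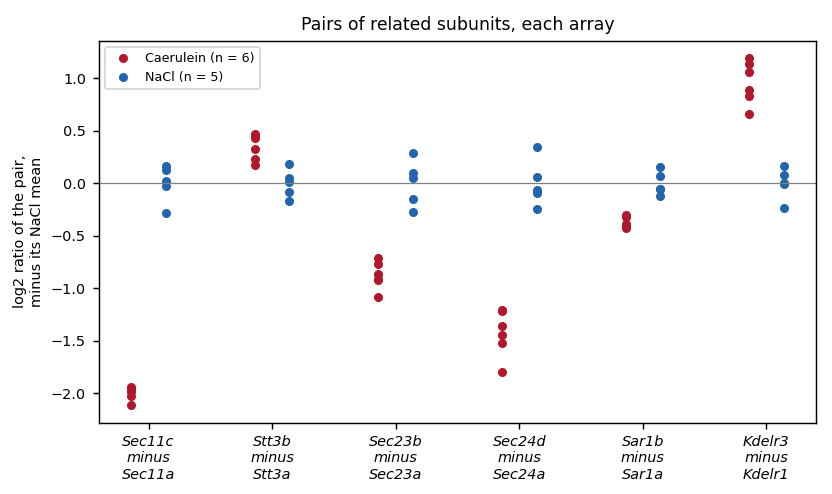
Log2 ratio of each of 6 pairs of related genes on each array, minus the pair's NaCl mean (vertical axis). Points are single arrays, caerulein left of NaCl in each pair. The groups are apart in 5 pairs, by up to a mean of -1.999 for Sec11c and Sec11a, and overlap slightly for Stt3b and Stt3a.

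Other genes of the pathway were set beside these from lists drawn up by function. Of 33 further genes of translocation and N-glycosylation, 14 fell (42.4%), 8 rose (24.2%) and 11 did not pass, with a median of -0.20. Over all genes 34.3% were lower and 20.3% higher, not far from these shares. Tram1, a membrane protein that contacts chains entering the channel, averaged 10.27 ± 0.13 under caerulein (SD, n = 6) and 11.91 ± 0.078 under NaCl (SD, n = 5), a 3.13-fold fall (limma adjusted p = 2.72e-09). Magt1, a subunit of the Stt3b form of the oligosaccharyltransferase, fell by 1.56, Dad1, a shared subunit, by 1.05, and Ostc, which belongs to the Stt3a form, by 0.80 (limma adjusted p = 2.10e-08, 6.76e-07 and 2.45e-05). The largest rises were those of Alg9, a mannosyltransferase that builds the sugar donor (1.01), and Prkcsh, a glucosidase subunit that trims new sugar chains (0.94). Next came Emc3, of a complex that inserts membrane proteins (0.78), and Get4, of a pathway that does so without the signal recognition particle (0.70). In each of these 8 genes the groups did not overlap.

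In ER-Golgi transport, 20 of 54 further genes fell (37.0%), 5 rose (9.26%) and 29 did not pass, with a median of -0.091. The median of all genes was -0.13, and 34.3% of them were lower and 20.3% higher, so the share of falls was near the background. The fall was largest for Bet1, a SNARE of this route, which averaged 5.73 ± 0.14 under caerulein (SD, n = 6) and 7.60 ± 0.049 under NaCl (SD, n = 5), or 3.67-fold lower (limma adjusted p = 9.69e-10). Its caerulein level was about as dim as those of Sec23a (5.57) and Sec16b (5.55). Whether it lay above background is unknown, so the size of the fall is uncertain. The p24 genes Tmed6 and Tmed4 fell by 1.29 and 1.20. Creld2 fell by 1.20 and was counted in this list, though it encodes an ER-resident protein induced by ER stress. Sec24b, another relative of Sec24a, rose by 0.96 (SE 0.078, limma adjusted p = 7.02e-07), while the remaining family member Sec24c, named after its value was seen, differed by 0.046 (adjusted p = 0.607). The vesicle genes Trappc4 (0.56), Ykt6 (0.55) and Arf1 (0.40) were called higher as deposited, but with an equal mean of reference genes they stood at 0.16, 0.15 and -0.0022 with no call. Without NaCl replicate 1, 9 of the 54 rose.

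Of 12 regulators of the secretory programme 6 were lower and 3 higher, where 34.3% and 20.3% of all genes were, and nothing particular to the list is read from these counts. Bhlha15, a factor that scales up secretory cells, averaged 7.65 ± 0.12 under caerulein (SD, n = 6) and 9.65 ± 0.29 under NaCl (SD, n = 5), with a difference of -2.001 (SE 0.12, limma adjusted p = 3.85e-08). Creb3l1, a membrane-bound factor that acts on transport genes, fell by 1.49, the acinar factor Nr5a2 by 0.83 and the ER stress factor Atf6 by 0.36, the last with overlap between groups. The stress factor Atf4 rose by 1.21 and Ern1, the ER stress sensor that splices Xbp1 RNA, by 1.21 (limma adjusted p = 6.68e-08 and 4.28e-05). The sensor kinase gene Eif2ak3 rose by 0.57, though not with an equal mean of reference genes (0.17) or after a second quantile normalisation (0.27). Xbp1, named after its value was seen, averaged 10.78 ± 0.070 under caerulein (SD, n = 6) and 10.78 ± 0.095 under NaCl (SD, n = 5). Its spliced and unspliced forms were not told apart here.

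Other scalings of the arrays moved the counts. With 4 rescalings, between 33 and 44 of the 47 genes were lower and 3 or 4 higher, against 29 and 3 as deposited. Equal reference gene means and equal 75th percentiles only shift whole arrays, and here both shifted every gene downward, so they could not turn a fall round. All 29 falls were also called after a second quantile normalisation and after loess, and all 3 rises in each of the 4. The group medians moved down together, by most with an equal mean of 16 reference genes, of which 7 were higher and 0 lower as deposited. That scaling moved the median of all genes to -0.53 and called 76.9% of all genes lower. As deposited, 32 of the 47 lay below the median of all genes. After a second quantile normalisation and after loess, which put the median of all genes at -0.057 and -0.019, 42 and 41 of the 47 lay below it. Of all probe sets called, 62.9% were lower as deposited, against 89.7% with the reference genes and 46.4% after loess.

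**Figure D5:**
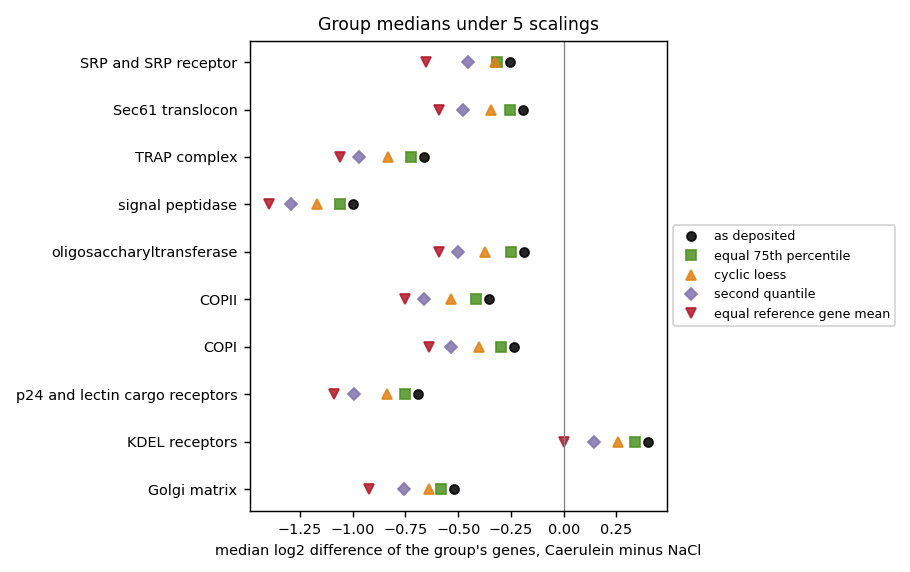
Median log2 difference, caerulein minus NaCl (horizontal axis), of each role group as deposited and after 4 rescalings of the arrays. In 9 of the 10 groups every rescaling lies further below 0 than the deposited value, and the KDEL receptor pair lies between 0.00076 and 0.40.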

How the data were processed

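Total RNA from pancreas, DNase-treated and screened for degradation per the labels' protocols, was biotin-labelled and hybridised to 1 Affymetrix array per sample. The authors deposited log2 values per probe set, made with RMA and the R packages oligo and limma per the submitters' processing notes; versions and build were not given in the sources used here. Usually RMA corrects background, quantile-normalises and summarises probes, which can compress large changes. Detection calls were not analysed here, and precision is limited by the number of arrays.

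Of 35556 probe sets, the platform annotation gave 21789 a single gene symbol and 1621 several, and 12146 were unlisted and left unnamed. Caerulein and NaCl were compared with limma 3.58.1 under R 4.3.3 (lmFit, eBayes, no covariates, two-sided), with Benjamini-Hochberg adjustment over all probe sets and a threshold of 0.05. The fit and the permutation test were tested on simulated data. Pairs of relatives were compared by exact permutation of the group labels. The alternatives were a trended robust prior, 4 rescalings (equal mean of 16 reference genes, equal 75th percentile, second quantile normalisation, cyclic loess), the brighter 50 percent of probe sets alone, the mean of a gene's probe sets, replicate number as a block, and each sample left out in turn. Members, gene lists and the rule for named genes were chosen with earlier results of these data known. By that rule every member is accounted for, with full values for the 3 of each role group with the smallest adjusted p, and for members called against their group's majority. Both genes of each pair are named, and up to 4 rises and 4 falls are named from each further list.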

Additional observations from a re-analysis of the deposited data

Results flagged for a closer look

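In 3 members and 1 further gene a single array lay far from the rest of its group by Dixon's test. Ssr4 was at 9.12 on caerulein replicate 3, where the next lowest caerulein array read 9.46. Spcs2 was at 7.40 on caerulein replicate 1, against 7.73 on the next. Kdelr1 was at 7.99 on caerulein replicate 4, against 8.26 on the next. Sec24b was at 7.21 on NaCl replicate 3, against 7.53 on the next. These 4 came from 140 groups tested, and chance alone flags about 1 in 20.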

How the results depend on the processing

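Of the 47 member differences, 28 falls and all 3 rises were called the same way in all 19 alternatives, of which the 2 whole-array shifts could not turn a fall. The exception among the falls was Rpn2, through single samples left out. Members lower numbered 44 with an equal reference gene mean. In the further translocation list, 4 were higher and 25 lower there, and 22 lower after a second quantile normalisation. The further transport list had 1 higher and 45 lower with an equal reference gene mean, 33 lower after a second quantile normalisation and 8 higher without the dimmer 50 percent of probe sets, where fewer probe sets were tested. Leaving out single samples gave 5 to 9 higher there, with 9 without NaCl replicate 1. Over all probe sets, an equal reference gene mean gave 3053 higher and 26504 lower calls, cyclic loess 5467 lower and leaving out dim probe sets 6446 lower, against 5829 and 9884 as deposited.

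With an equal reference gene mean, a second quantile normalisation and cyclic loess, in that order, the median was -0.78, -0.64 and -0.51 over the members, -0.65, -0.45 and -0.33 for SRP and its receptor, -0.59, -0.48 and -0.34 for the Sec61 translocon, -1.06, -0.97 and -0.83 for TRAP, -1.40, -1.29 and -1.17 for signal peptidase, -0.59, -0.50 and -0.37 for oligosaccharyltransferase, -0.75, -0.66 and -0.53 for COPII, -0.64, -0.53 and -0.40 for COPI, -1.09, -0.99 and -0.84 for the cargo receptors, 0.00076, 0.14 and 0.26 for the KDEL receptors, and -0.92, -0.76 and -0.64 for the Golgi matrix.

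Genes with small differences changed sign. An equal reference gene mean lowered every gene by the same amount, so each member with a small positive difference had to turn. These were Srp68 (-0.28), Sec61a1 (-0.23), Sec63 (-0.28), Rpn1 (-0.38), Stt3b (-0.24), Sec23a (-0.34) and Mcfd2 (-0.35). Each of them was called lower with that scaling (limma adjusted p of 0.000241 to 0.00575). The further gene Arf1, called higher as deposited (0.40, limma adjusted p = 0.000118), stood at -0.0022 there. After a second quantile normalisation the members that changed sign were Srp68 (-0.19), Sec61a1 (-0.14), Sec63 (-0.18), Rpn1 (-0.27), Stt3b (-0.16), Mcfd2 (-0.27) and Sec16b (0.063). Of these, Srp68, Sec63, Rpn1 and Mcfd2 were called lower (limma adjusted p = 0.0340, 0.0433, 0.00843 and 0.00244) and the others were not called. After cyclic loess the members that changed sign were Srp68 (-0.060), Sec63 (-0.049), Rpn1 (-0.12), Stt3b (-0.026), Mcfd2 (-0.13) and Sec16b (0.12), none of them called, while Sec23a was called higher there (0.24, limma adjusted p = 0.0241). With equal 75th percentiles they were Rpn1 (-0.037), Sec23a (-0.0017) and Mcfd2 (-0.015). With single samples left out, Rpn1 ran from -0.0091 to 0.076 and Sar1a from -0.041 to 0.034. None of these members had passed as deposited. The causes of these shifts were not tested.

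Replicate numbers did not pair the samples, as deviations of same-numbered samples correlated at only -0.052 to 0.060. With the replicate block, 30 members were lower and 3 higher. Caerulein replicate 6 has no NaCl partner and drops out of that fit, and leaving it out without the block also gave 30 and 3. For the pairs, the sign-flip test over 5 shared numbers cannot pass the threshold. Its changes were -2.003 for Sec11c and Sec11a, 0.35 for Stt3b and Stt3a, -0.88 for Sec23b and Sec23a, -1.44 for Sec24d and Sec24a, -0.37 for Sar1b and Sar1a, and 0.94 for Kdelr3 and Kdelr1, each with an exact permutation adjusted p of 0.0625.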
